A study of Homo sapiens with 8 samples.

Results

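This account is about the AP-1 and immediate early genes of LNCaP cells, a line derived from a lymph node metastasis of a human prostate cancer, after transfection with an siRNA against GATA2. The genes were chosen by name and number 10: FOS, FOSB, FOSL1, FOSL2, JUN, JUNB, JUND, EGR1, ATF3 and MAFF. They were measured by 13 probes, and all 10 were among the 28876 genes tested. Cells received 30 nM of siGATA2 or of siControl, the scrambled siRNA, in medium with serum, and RNA was taken at 72 h. Each group had 4 replicates, each hybridized to 1 one-colour array (n = 4 against 4). The sources used here do not say whether the replicates were separate cultures. One catalogue product was used against GATA2, so that a response to the silencing and a response to that siRNA molecule cannot be told apart. Only 1 time point was taken. The values are Cy3 intensities that Feature Extraction corrected for background, placed on the log2 scale and quantile-normalized over the 8 arrays, and each log2 difference subtracts the mean of the siControl arrays from that of the siGATA2 arrays. A gene was called when its adjusted p from limma was under 0.05 over all genes tested.

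AP-1 is a dimer of a FOS-family and a JUN-family protein, or of JUN proteins alone, held together by leucine zippers, that binds the heptamer TGAGTCA and related sites in DNA. ATF3 and the small MAF protein MAFF are relatives that share the basic leucine zipper, while EGR1 binds DNA through zinc fingers. Immediate early genes are transcribed within minutes of growth factors, stress or injury without new protein synthesis, FOS and EGR1 usually for a short time. FOS and EGR1 are classic targets of serum response factor at CArG boxes, and JUN and ATF3 are induced by the stress kinases through CRE-like sites.

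The targeted gene, read in the main fit from its brightest probe alone, did not bear out the labels. On the log2 scale its signal in replicates 1 to 4 was 12.61, 12.54, 11.57 and 11.40 under the siGATA2 label and 11.74, 11.28, 11.09 and 11.29 on the siControl arrays, a log2 difference of 0.68 (standard error 0.313, adjusted p = 0.155 from limma). In 3 of 24 other settings a call of higher GATA2 was made, with array weights (0.80, adjusted p = 0.0312 from limma), with the letters in the sample titles as a block (0.47, adjusted p = 0.0264 from limma) and with siGATA2 arrays 1 and 2 alone (1.22, adjusted p = 0.00788 from limma). The last 2 settings were chosen after the data were seen, and over all 24 the log2 difference lay between 0.03 and 1.22. A fall was not detected, so each direction given here rests on the array labels. The prostate luminal markers KLK3, FOLH1, TMPRSS2, KRT8 and KRT18 were well above background on all 8 arrays. Of these KLK3 was called lower, at -1.63, and KRT8 higher, at 0.56 (adjusted p = 0.0330 and 0.0284 from limma). FOLH1, TMPRSS2 and KRT18 were not called. Of the markers of other cell types, the basal list had 0 of 2 genes and the fibroblast list 1 of 3 genes well above background on every array. Of 3 endothelial markers CDH5 and VWF were so on all 8 arrays and PECAM1 on none, and VWF was called lower, at -0.96 (adjusted p = 0.00154 from limma). Among 4 leukocyte markers PTPRC and CD68 were called higher and CD14 and CD3E were not called. The summed normalized signal of these 4 ran from 1116 to 1318 intensity units on the siGATA2 arrays and from 610 to 730 on the siControl arrays, and its part in the results was not tested. Probes well above background numbered 34136 to 36735 with siGATA2 and 24072 to 34591 with siControl, with arrays 1 and 3 the lowest of the latter at 28305 and 24072.

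The DNA just before the start of the genes is shown first, and its relation to the changes given below was not tested. The 250 bases upstream of each start in the RefSeq table of GRCh38.p14 were searched on both strands in 11 windows of the 9 members it lists. The windows printed are those that held an 8-base CRE, TGACGTCA, its variant TGACATCA, or a CArG box, which are set in capitals.
JUN, chr1:58784048-58784297, minus strand: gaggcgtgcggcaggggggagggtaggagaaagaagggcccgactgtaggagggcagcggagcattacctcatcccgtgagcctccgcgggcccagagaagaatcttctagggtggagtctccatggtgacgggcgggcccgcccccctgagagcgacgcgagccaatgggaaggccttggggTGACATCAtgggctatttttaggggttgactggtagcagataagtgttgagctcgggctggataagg
ATF3, upstream start, chr1:212565157-212565406, plus strand: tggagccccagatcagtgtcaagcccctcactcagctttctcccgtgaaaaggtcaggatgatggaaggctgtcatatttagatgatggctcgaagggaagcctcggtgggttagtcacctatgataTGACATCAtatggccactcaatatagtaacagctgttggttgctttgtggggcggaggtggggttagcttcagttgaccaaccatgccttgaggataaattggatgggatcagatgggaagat
MAFF, upstream start, chr22:38201744-38201993, plus strand: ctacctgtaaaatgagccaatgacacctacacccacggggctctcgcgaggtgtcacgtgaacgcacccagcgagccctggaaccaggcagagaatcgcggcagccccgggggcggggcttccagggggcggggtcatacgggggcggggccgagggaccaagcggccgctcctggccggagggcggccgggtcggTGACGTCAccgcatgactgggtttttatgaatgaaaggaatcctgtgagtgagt
JUND, chr19:18281623-18281872, minus strand: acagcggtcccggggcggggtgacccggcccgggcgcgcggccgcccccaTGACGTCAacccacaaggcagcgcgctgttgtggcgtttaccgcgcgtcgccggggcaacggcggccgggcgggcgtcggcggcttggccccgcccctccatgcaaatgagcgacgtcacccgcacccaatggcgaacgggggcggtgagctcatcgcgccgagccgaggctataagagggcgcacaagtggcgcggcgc
EGR1, chr5:138465229-138465478, plus strand: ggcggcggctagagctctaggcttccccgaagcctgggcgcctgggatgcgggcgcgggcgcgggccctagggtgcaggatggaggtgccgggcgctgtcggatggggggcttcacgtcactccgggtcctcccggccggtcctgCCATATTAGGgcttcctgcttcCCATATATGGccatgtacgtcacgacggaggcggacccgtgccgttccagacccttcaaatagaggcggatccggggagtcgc
The variant TGACATCA began 67 bases before the start of JUN and 123 bases before the upstream start of ATF3. Starts of ATF3 other than those in the table were not searched. The CRE TGACGTCA began 54 bases before the upstream start of MAFF and 200 bases before that of JUND. In the windows of FOS, FOSB, FOSL2, JUNB and EGR1 neither was found. Other CRE-like forms were not searched, such as TGACGTTT in the FOS window and TGACGTAA in the FOSB window. FOSL1 had no window. Of all 35116 windows in the table, 2.37% held TGACATCA and 1.65% held TGACGTCA. The EGR1 window held CArG boxes at 105 and 83 bases before the start, a motif in 1.16% of all windows. The FOS window held none, and DNA more than 250 bases upstream of a start was not searched. The AP-1 heptamer TGAGTCA, in 4.20% of all windows, was in none of the 11. The letters GATAA, the core that GATA factors bind, stood at 29 and 7 bases before the start of JUN and at 30 bases before the upstream start of ATF3, and were found in 20.4% of all windows. These matches describe the sequence alone.

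On the arrays labelled siGATA2, JUN, ATF3, MAFF and, by less, JUND were higher. The first 3 rose 5.87- to 7.08-fold and JUND 1.63-fold. These 4 of 10 members, 40%, were called higher, against 12.3% of all genes tested. None was called lower (limma, 0 also at an unadjusted p under 0.05 and 0 with the methods' t-test), against 14.1% of all genes. At 2-fold or more 3 members were called higher and 0 lower, against 4.51% and 7.09% of all genes. In the 4 called members every siGATA2 value lay above every siControl value, which held for 16.2% of all genes tested, and no member had every siGATA2 value below, which held for 16.3%. The members had a median log2 difference of 0.75, and all genes tested had one of 0.09.

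**Figure D1:**
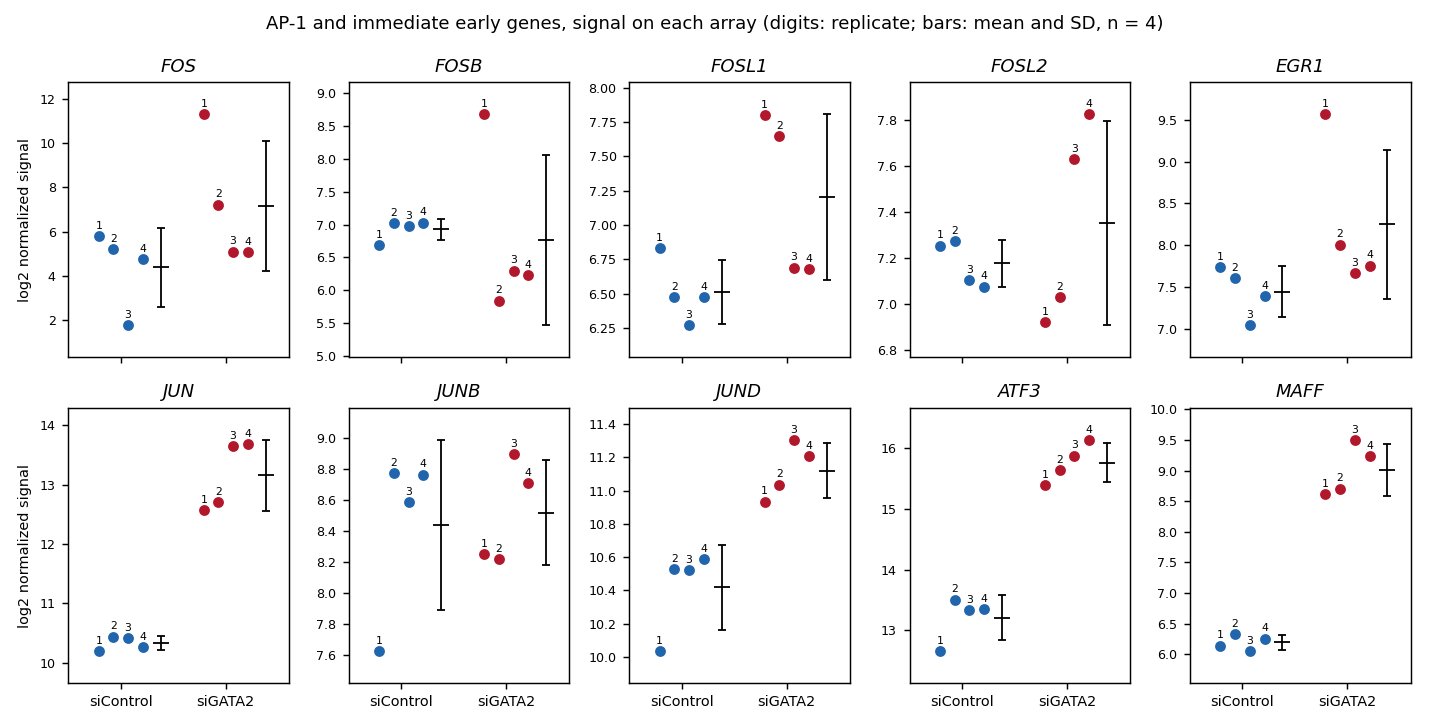
Log2 normalized signal (vertical axis) of the 10 members on each array, with siControl in blue and siGATA2 in red. Digits give the replicate, and the black bars give the mean and SD of 4 arrays. In JUN, JUND, ATF3 and MAFF the groups are apart, while FOS, FOSB and EGR1 are highest by far on siGATA2 array 1.

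JUN encodes the founding member of its family and the strongest activator in it. Arrays 1 to 4 with the siGATA2 label read 12.57, 12.71, 13.65 and 13.68, and those of siControl 10.20, 10.44, 10.41 and 10.27. All siGATA2 arrays were high, arrays 3 and 4 by about 1 log2 unit more than arrays 1 and 2. The mean was 13.15 ± 0.595 (SD, n = 4) against 10.33 ± 0.117 (SD, n = 4), a log2 difference of 2.82 (standard error 0.278, adjusted p = 0.000237 from limma). The exact two-sided permutation p was 0.0286, the smallest that 4 arrays against 4 can give.

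JUND, which is present in most resting cells and has been described as a brake on growth, moved less. It was 10.93, 11.04, 11.30 and 11.21 on the siGATA2 arrays and 10.03, 10.53, 10.52 and 10.59 on the siControl arrays. The groups did not overlap, and siControl array 1 lay below its group. This gave a log2 difference of 0.70 with a standard error of 0.158 (limma, adjusted p = 0.0130). The exact permutation p was 0.0286. Scaled to the E1A spike-in probes it was 0.09 (adjusted p = 0.944), in a setting where the median of all genes was -0.43 in place of 0.09. The E1A probes had a mean log2 signal of 11.13 on siControl array 1 and of 13.45 to 13.83 on the other 7 arrays, and the part of that array in the spike-in values given here was not tested. With the row of the slide as a block the adjusted p of JUND from limma was 0.0591. JUNB, which often opposes JUN in the same dimers, was 8.25, 8.22, 8.90 and 8.71 on the siGATA2 arrays and 7.62, 8.78, 8.59 and 8.76 on the siControl arrays. The groups overlapped, and siControl array 1 was the lowest of all 8. Its log2 difference was 0.08 (95% confidence interval -0.60 to 0.76, adjusted p = 0.865 from limma).

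Whether members of the JUN family moved by unequal amounts was tested on the log2 ratio of a pair within each array. A constant factor per array cancels in such a ratio, but the quantile normalization used here need not. The ratio of JUN to JUNB was higher by 2.74 on the siGATA2 arrays and that of JUN to JUND by 2.12, each without overlap of the groups (exact two-sided permutation p = 0.0286, or 0.0715 adjusted over 5 pairs). The ratio of JUND to JUNB differed by 0.62 with overlapping groups (exact permutation p = 0.0571, adjusted 0.0952). The changes of JUN and ATF3 differed by 0.27 (exact permutation p = 0.229, adjusted 0.286). For JUN and MAFF the difference was smaller than the spread of their ratio over arrays, with SDs of 0.222 and 0.157 (exact permutation p = 1). None of the 5 pairs passed the adjustment. The smallest exact permutation p that 4 arrays against 4 can give, 0.0286, becomes 0.0715 when only JUN to JUNB and JUN to JUND reach it. The adjusted p therefore could not decide whether these ratios differed.

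ATF3, a stress-induced factor that as a homodimer represses and with JUN partners can activate, was the member with the most probes. Its brightest probe was 15.40, 15.64, 15.88 and 16.14 on the siGATA2 arrays and 12.65, 13.50, 13.33 and 13.35 on the siControl arrays. The groups were far apart, at a log2 difference of 2.55 (standard error 0.232, adjusted p = 0.000163 from limma). The exact permutation p was 0.0286. The other 3 probes, fitted with all 35546 probes, were higher too, but by unequal amounts. A second probe designed on the same transcript, NM_001040619, differed by 2.66 (adjusted p = 0.00277 from limma) and the probe on NM_001674 by 1.97 (adjusted p = 0.000842 from limma). The fourth, also on NM_001040619, ran from 9.28 to 9.59 on the siGATA2 arrays and from 8.94 to 9.07 on the siControl arrays, a log2 difference of 0.41 (95% confidence interval 0.15 to 0.68, adjusted p = 0.0316 from limma). Where on the gene each probe lies was not analysed here.

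**Figure D2:**
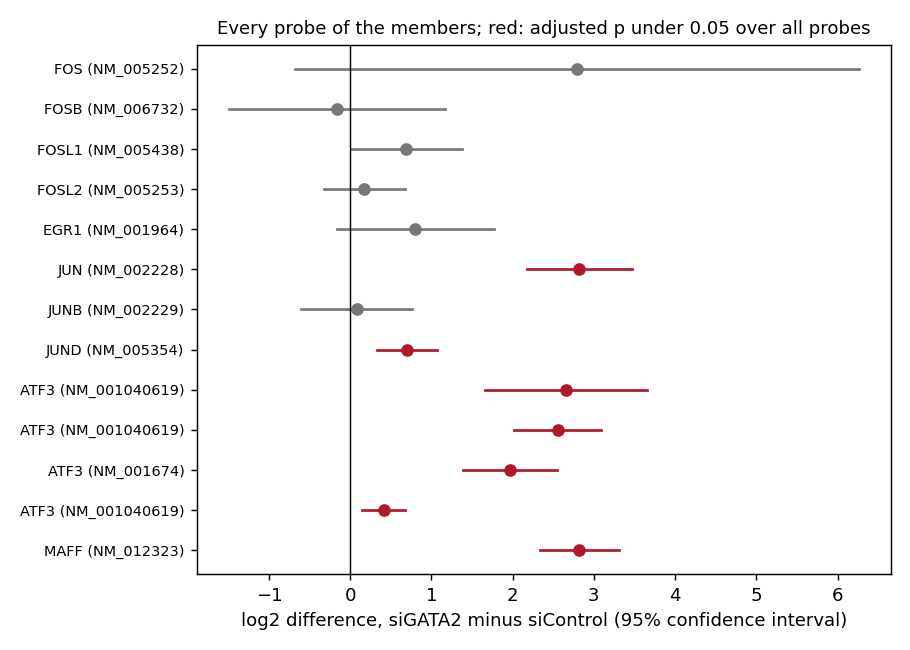
Log2 difference (horizontal axis, siGATA2 minus siControl) of each of the 13 probes with its 95% confidence interval from limma, and the transcript each was designed on. Red marks probes with an adjusted p under 0.05. The 4 ATF3 probes are all right of 0, at 0.41 to 2.66, and the interval of FOS is the widest.

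MAFF belongs to the small MAF proteins, which lack an activation domain and pair with other basic leucine zipper factors. Its signal was 8.62, 8.71, 9.50 and 9.24 on the siGATA2 arrays and 6.14, 6.33, 6.05 and 6.26 on the siControl arrays. The 2 groups were separate by more than 2 log2 units, the log2 difference being 2.82 (standard error 0.210, adjusted p = 6.85e-05 from limma, exact permutation p = 0.0286). The probe has 10 spots per array, of which 3 in all were marked as outliers and left out, and it failed the above-background flag on siControl array 3. With normexp background correction, which shrinks the difference of dim probes, the log2 difference was 1.99.

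The rise of these 4 genes was also present within each row of the slide, which held unequal numbers of the groups. In the row with 3 siGATA2 arrays and 1 siControl array the log2 differences were 2.71 for JUN, 2.29 for ATF3, 2.69 for MAFF and 0.50 for JUND. In the row with 1 siGATA2 array and 3 siControl arrays they were 3.33, 2.98, 3.06 and 0.85 in the same order.

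FOS, the classic immediate early gene and JUN's main partner, showed another pattern. In replicates 1 to 4 it read 11.32, 7.23, 5.10 and 5.07 with siGATA2, and 5.82, 5.20, 1.78 and 4.76 with siControl. One array was far above the rest, siGATA2 array 1, array 2 lay above all siControl arrays, and arrays 3 and 4 of the same group lay within the siControl values. Its probe failed the above-background flag on siControl array 3, whose value is the lowest. The log2 difference was 2.79 (95% confidence interval -0.70 to 6.28, adjusted p = 0.221 from limma, exact permutation p = 0.2), as large as that of JUN but with a standard error of 1.51 in place of 0.278. Without siGATA2 array 1 the log2 difference was 1.41 and with siGATA2 arrays 3 and 4 alone it was 0.70. The SD of FOS over the siGATA2 arrays, 2.94, was reached by 0.0312% of the genes tested.

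FOSB and EGR1 stood out on the same array. FOSB, a close relative of FOS, was 8.68, 5.84, 6.30 and 6.23 on the siGATA2 arrays and 6.69, 7.02, 6.97 and 7.03 on the siControl arrays. Array 1 lay above every siControl array, and arrays 2 to 4 lay below all of them. The log2 difference of -0.16 (95% confidence interval -1.50 to 1.17, adjusted p = 0.859 from limma) therefore joined values on both sides. Without siGATA2 array 1 FOSB was called lower, at -0.80 (adjusted p = 0.0130 from limma). EGR1 was 9.57, 8.01, 7.67 and 7.76 on the siGATA2 arrays and 7.74, 7.61, 7.05 and 7.39 on the siControl arrays. Array 1 was the only one above 9, arrays 2 and 4 lay above all siControl arrays and array 3 between them. Its log2 difference was 0.80 (95% confidence interval -0.17 to 1.78, adjusted p = 0.206 from limma, exact permutation p = 0.0571), and without siGATA2 array 1 it was 0.36.

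The 3 genes were among few that set this array apart. Of the 28876 genes, 21 were at least 2-fold higher on siGATA2 array 1 than on each other siGATA2 array, and FOS, FOSB and EGR1 were 3 of these. FOS was 17.0-fold, FOSB 5.22-fold and EGR1 2.95-fold higher than on the next siGATA2 array. Of the 21, 13 had a gene symbol, and 3 of these were well above background on all 8 arrays, namely FOSB, EGR1 and NADSYN1, an enzyme of NAD synthesis. By the same count siGATA2 arrays 2, 3 and 4 had 49, 24 and 173 genes, with no member among them. The count was chosen after the values were seen.

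The FOS-related antigens had no high array of that kind but differed between arrays of the siGATA2 group. FOSL1, which is often raised in invasive tumour cells, was 7.80, 7.65, 6.69 and 6.68 on the siGATA2 arrays and 6.83, 6.48, 6.27 and 6.48 on the siControl arrays. Arrays 1 and 2 lay above every siControl array and arrays 3 and 4 among them, and the probe failed the above-background flag on siControl array 3. The log2 difference was 0.69 (95% confidence interval 0.01 to 1.37, adjusted p = 0.128 from limma, exact permutation p = 0.0857). With siGATA2 arrays 1 and 2 alone it was called higher, at 1.21 (adjusted p = 0.00577 from limma). FOSL2 ran the other way within the group, at 6.92, 7.03, 7.63 and 7.83 on the siGATA2 arrays, against 7.26, 7.28, 7.11 and 7.08 on the siControl arrays. Arrays 1 and 2 lay below and arrays 3 and 4 above all siControl arrays. Its log2 difference was 0.17 (95% confidence interval -0.32 to 0.67, adjusted p = 0.586 from limma), and with siGATA2 arrays 3 and 4 alone it was called higher, at 0.55 (adjusted p = 0.0210 from limma).

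The pairs of siGATA2 arrays carry different letters in their titles, A and B for arrays 1 and 2 and E and F for arrays 3 and 4. From arrays 1 and 2 to arrays 3 and 4 the mean of FOS fell by 4.18 on the log2 scale, that of EGR1 by 1.08, that of FOSL1 by 1.04 and that of FOSB by 1.00. The mean of JUN was 1.03 higher on arrays 3 and 4, that of FOSL2 0.75, that of MAFF 0.71, that of JUNB 0.57, that of ATF3 0.49 and that of JUND 0.27. What the letters stand for is not given in the sources used here, and with 2 arrays on each side these values were not tested. Of the siControl arrays, array 1 carries B and arrays 2 to 4 carry D, F and G. The letters were thus unevenly spread over the groups, and the main comparison did not adjust for them. Among siControl arrays, array 1 was highest in FOS, EGR1 and FOSL1 and lowest in JUN, JUNB, JUND and ATF3. It was also lowest in FOSB, and neither highest nor lowest in FOSL2 and MAFF.

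Of the genes with a symbol that were well above background on all 8 arrays, 13175 in number, JUN had the profile most like that of MAFF, the called member with the largest rise. Likeness was the root mean square difference of the log2 signals centred on the siControl mean, over the 8 arrays, and was 0.166 for JUN. Next came LASP1, an actin-binding adaptor, at 0.182, then SLC9D1 at 0.202, ADAM21, a testis metalloprotease, at 0.214 and the histone gene H2BC21 at 0.229. ATF3 ranked 14 by this measure, at 0.323, and JUND 1469, at 1.52. By this measure a gene close to MAFF must rise by a like amount. The log2 differences were 2.65 (LASP1), 2.62 (SLC9D1), 2.75 (ADAM21) and 2.98 (H2BC21).

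Other immediate early genes did not move as one. Of 31 tested, 10 were called higher and 8 lower, or 32.3% and 25.8%, against 12.3% and 14.1% of all genes, and their median log2 difference was -0.04. CCN2 and CCN1, secreted matricellular proteins and known targets of SRF and YAP, had the largest rises. CCN1 was 15.47, 15.67, 14.34 and 14.37 on the siGATA2 arrays and 11.23 to 11.47 on the siControl arrays, a log2 difference of 3.62 (adjusted p = 0.000152 from limma). CCN2 differed by 4.57 (adjusted p = 0.000201 from limma), but its probe passed the above-background flag on 2 of the 4 siControl arrays, and with normexp background correction the difference was 2.37. GADD45B, a stress-induced regulator of the p38 and JNK pathways, rose by 1.34 (adjusted p = 0.000130 from limma). The largest fall was that of BTG2, an antiproliferative gene induced by p53, at -3.48 (adjusted p = 5.72e-05 from limma), which was 10.29, 10.30, 10.62 and 10.56 on the siGATA2 arrays and 13.18 to 14.34 on the siControl arrays. ARC, a neuronal early gene, was lower at -2.48 and BTG1, a relative of BTG2, at -1.72 (adjusted p = 0.000363 and 0.00203 from limma). No gene of this list was 2-fold higher on siGATA2 array 1 than on each other siGATA2 array.

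Among partners and relatives of AP-1, 3 of 15 tested genes were called higher and 4 lower, or 20% and 26.7%, against 12.3% and 14.1% of all genes, with a median of 0.14. MAFK, a small MAF protein like MAFF, rose by 2.27 (adjusted p = 0.00596 from limma). It was 14.50 and 14.74 on siGATA2 arrays 1 and 2, 12.94 and 13.04 on arrays 3 and 4, and 11.34 to 11.75 on the siControl arrays, so that arrays 1 and 2 were its higher pair, where MAFF was higher on arrays 3 and 4. JDP2, a repressor that pairs with JUN, was higher by 0.61, and CREB1, the factor named for the CRE, by 0.53 (adjusted p = 0.00530 and 0.0242 from limma), although CREB1 was at -0.08 with spike-in scaling and was called in 15 of 24 other settings. Leaving out siGATA2 array 3 or 4 or siControl array 2, 3 or 4 each ended its call. BATF3, which pairs with JUN in lymphoid and dendritic cells, was lower at -1.56 and ATF1, a CRE-binding factor, at -0.96 (adjusted p = 0.0104 and 0.000932 from limma). BATF3 lost its call with slide row as a block and with siGATA2 arrays 3 and 4 only (adjusted p = 0.0509 and 0.0573 from limma).

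Of 26 tested kinases and factors that act upstream, 3 were called higher and 6 lower, or 11.5% and 23.1%, against 12.3% and 14.1% of all genes, with a median of -0.16. MAP2K4, which activates the JUN kinases, rose by 1.05 (adjusted p = 0.0130 from limma). It lost its call with spike-in scaling and with siControl arrays 2 and 4 only (adjusted p = 0.771 and 0.0723 from limma). MRTFB, a coactivator of SRF, was higher by 0.72 and the p38 kinase MAPK14 by 0.57, or -0.01 with spike-in scaling (adjusted p = 0.00299 and 0.0148 from limma in the quantile-normalized data). MAPK10, a JUN kinase found mostly in neurons, was lower at -1.83 (adjusted p = 0.00688 from limma), with a probe well above background on 2 arrays of each group. Its call was lost with 75th percentile scaling and with the mean over probes (adjusted p = 0.0592 and 0.0526 from limma). ELK3, an ETS partner of SRF, was lower at -1.65 and the ribosomal S6 kinase RPS6KA3 at -1.12 (adjusted p = 0.000436 and 0.000606 from limma).

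Of 21 tested genes that carry known AP-1 sites, 1 was called higher and 4 lower, or 4.76% and 19%, against 12.3% and 14.1% of all genes, with a median of 0.28. The lower calls numbered 1 without siGATA2 array 1, siGATA2 array 2 or siControl array 2, and 2 without siControl array 1 or 3. The higher calls numbered 2 without siGATA2 array 3 or 4. They numbered 4 with 75th percentile scaling, 4 with array weights, 5 with the title letters as a block and 0 with spike-in scaling. At an unadjusted p under 0.05 from limma 5 genes were higher and 4 lower. In the main fit the higher gene was the gelatinase MMP9, at 0.80 (adjusted p = 0.00191 from limma). The largest falls among the called genes were those of ANXA1, HMOX1 and ITGA2. ANXA1, an anti-inflammatory annexin, was lower at -2.43 (adjusted p = 0.00125 from limma), with a probe well above background on 1 siGATA2 array and 2 siControl arrays. HMOX1, the inducible heme oxygenase, was lower at -0.98 and ITGA2, a collagen receptor subunit, at -0.68 (adjusted p = 0.0237 and 0.0230 from limma). Of 24 other settings HMOX1 was called in 15 and ITGA2 in 16. HMOX1 lost its call without siGATA2 array 1 or 2 or siControl array 1, 2 or 3, and ITGA2 without siGATA2 array 1 or 2 or siControl array 2. Both lost it with the replicate block (adjusted p = 0.0532 and 0.0728 from limma). Of 7 heat shock genes 0 were called higher (limma, 1 at an unadjusted p under 0.05 and 0 with the methods' t-test) and 1 lower, HSPH1, at -0.63 (adjusted p = 0.00167 from limma), or 2 lower without siControl array 1.

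**Figure D3:**
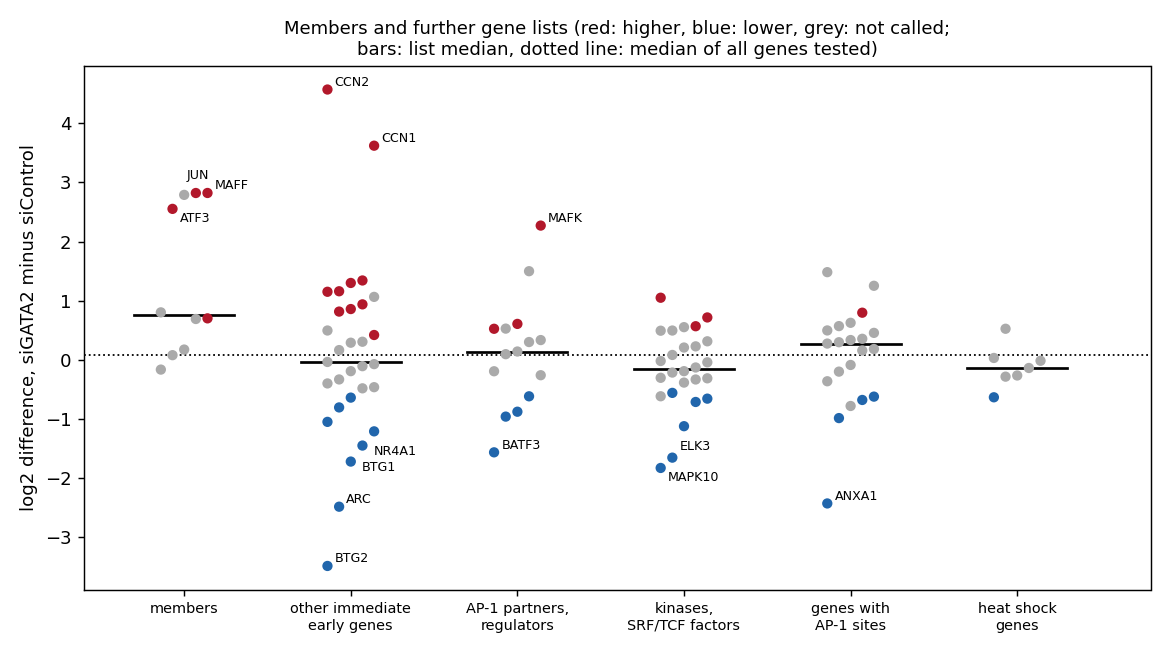
Log2 difference (vertical axis, siGATA2 minus siControl) of each gene in the members and the 5 further lists, one point a gene. Red points were called higher and blue points lower at an adjusted p under 0.05, black bars are list medians and the dotted line is the median of all genes tested. The members have 4 red and no blue points, and the other immediate early genes have 10 red and 8 blue.

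**Figure D4:**
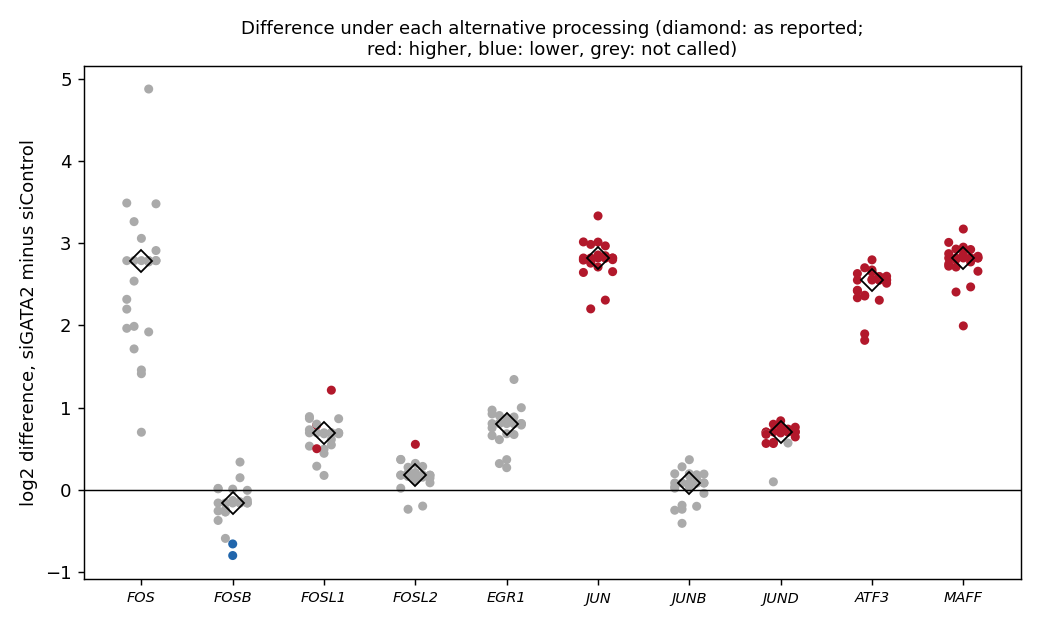
Log2 difference (vertical axis, siGATA2 minus siControl) of each member as reported (diamonds) and under 24 other settings (points). Red points were called higher and blue points lower. JUN, ATF3 and MAFF are red in all 24 settings, JUND in 21, and FOS and EGR1 in none.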

How the data were processed

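RNA from 8 LNCaP samples (4 siGATA2, 4 siControl) was measured on 1-colour Agilent arrays that lay on 1 slide and came from 1 scan. Labels gave the group and replicate number. Each deposited file holds spot intensity values from Agilent Feature Extraction 11.0.1.1. The processed signal was the main input, the flags marked outlier and dim spots, and the median signal and local background served the normexp alternative. The authors also deposited a matrix of log2 values, quantile-normalized per the methods, with a median of 7.45 in each column and a correlation of at least 0.985 across probes with the log2 processed signal of its own array, which served as an alternative. The array design named in the file headers is not the one named in the methods.

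Log2 processed signals were averaged over the spots of a probe without an outlier flag and quantile-normalized (limma 3.58.1, R 4.3.3). RefSeq accessions gave a symbol to 26364 of 42405 probes. The 1914 probes without annotation and those with a mean under 3 were removed, which left 35546, and each gene was read from its brightest probe. Groups were compared with lmFit and eBayes and Benjamini-Hochberg adjustment over all 28876 genes, where the study used Student's test, here an alternative. The test was checked on simulated data. Arrays have no read depth, and their number limits the precision. The members, gene lists, tests and alternatives were chosen with earlier results of these data known. The genes named are the members, GATA2, the 3 called genes of each further list with the largest rise and fall, and the 5 genes closest in profile to the called member with the largest rise (no member was called lower), among genes with a symbol and a probe well above background on all arrays. A few genes of these lists are not reported here. ATF7, EGR3, MAPK8, MMP3, CXCL8, GJA1, HSPA1A, KRT5 and COL3A1 had no probe that was named by symbol and passed the filter. The deposited files hold no mean signal, so normexp was run on the median signal, with an offset of 50.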

Additional observations from a re-analysis of the deposited data

Results flagged for a closer look

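In 8 of 76 groups of 4 values examined, over the genes named here, 1 array lay apart from the other 3 by more than Dixon's critical share of the group's range, where chance gives about 1 in 20. The groups share arrays and are not independent. In 6 of the 8 the array was siControl array 1, and in 1 it was siGATA2 array 1. FOSB was 8.68 on siGATA2 array 1 and 5.84 to 6.30 on the other siGATA2 arrays, a gap of 0.838 of the range. On siControl array 1 FOSB was 6.69, against 6.97 to 7.03 on the others (gap 0.837). JUNB was 7.62 there, against 8.59 to 8.78 (gap 0.837), and JUND 10.03, against 10.52 to 10.59 (gap 0.875). BATF3 was 8.27, against 9.17 to 9.26 (gap 0.909), BTG1 12.40, against 13.41 to 13.60 (gap 0.841), and LASP1 11.45, against 11.82 to 11.86 (gap 0.891). For MAPK10 the array was siControl array 3, at 4.71, against 5.27 to 5.32 (gap 0.922). FOS and EGR1, which were also highest on siGATA2 array 1, did not pass this limit.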

How the results depend on the processing

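JUN, ATF3 and MAFF were called higher under all 24 alternatives, with log2 differences of 2.20 to 3.34, 1.82 to 2.80 and 1.99 to 3.18. The methods' t-test, the intensity trend, the deposited log2 values, the other filters, the mean over probes and 75th percentile scaling left the counts of members called as reported. JUND lost its call with spike-in scaling (0.0941), slide row as a block (0.67) and siGATA2 arrays 1 and 2 only (0.57). FOSL1 was called higher with array weights (0.79), the title-letter block (0.50) and siGATA2 arrays 1 and 2 only (1.21). FOSB was called lower with siGATA2 arrays 3 and 4 only (-0.66), which gave 1 member called lower, and FOSL2 higher (0.55). Signs that turned, in genes not called in that setting, were those of FOSB with 75th percentile scaling (0.00907), normexp (0.00523) and siGATA2 arrays 1 and 2 only (0.34), of FOSL2 with spike-in scaling (-0.24) and siGATA2 arrays 1 and 2 only (-0.20), of JUNB with spike-in scaling (-0.41), array weights (-0.24), siControl arrays 2 and 4 only (-0.25) and siGATA2 arrays 1 and 2 only (-0.20), and of CREB1 (-0.0800) and MAPK14 (-0.0142) with spike-in scaling. Genes of the 5 further lists called higher, 17 as reported, numbered 2 with spike-in scaling and 31 with the title-letter block, and those called lower, 23 as reported, 10 with spike-in scaling and 15 with the row block. With 1 array left out in turn, FOSB lay between -0.80 and 0.14, JUNB between -0.19 and 0.19, and members called lower numbered 0 to 1. The 1 was FOSB without siGATA2 array 1. The cause was not tested. The title-letter block sets the arrays lettered A or B, siGATA2 arrays 1 and 2 and siControl array 1, apart from those lettered D to G. It and the settings with siGATA2 arrays 1 and 2 or 3 and 4 only were chosen after the data were seen, and the array weights did not fully converge. The planned slide block had 1 slide and was not run.

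Replicate numbers could not be taken as pairs: across genes, arrays of one number departed from their group means with correlations of 0.52, -0.30, 0.16 and 0.18. With the replicate block 4 members were called higher and 0 lower, with JUN at 2.82 (adjusted p = 0.00307 from limma).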
